A study of Rattus norvegicus with 16 samples.

Results

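The spleen libraries were compared with those of 5 other tissues of the laboratory rat, using small RNA reads on pre-miRNA hairpins. Spleen was chosen by its tissue label. It made up 2 of the 12 libraries of the six-tissue set, 1 from an adult male BN-Lx rat and 1 from an adult male SHR rat, out of 16 libraries in the series. The other 10 libraries came from whole brain, liver, heart, testis and kidney, with 1 library per tissue and strain. BN-Lx and SHR are inbred strains, SHR being the spontaneously hypertensive rat, and no animal was treated. The 6 tissues of a strain came from 1 rat. Since the fit has a term for strain, the p-values measure how the difference between the BN-Lx and the SHR rat varied across the 6 tissues. They do not measure the spread between rats of a strain, and strain and individual cannot be told apart. Whole tissue was used and no cell type was sorted. A lower level of a miRNA from fewer cells of a type and one from less RNA per cell cannot be told apart.

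The depth of the spleens was 737949 reads for the BN-Lx library and 497001 for SHR. The testis libraries were the shallowest with 26880 and 29131 reads, and the others held between 403453 and 1064894. A value of 0 reads allows up to 3 reads, which was 4.07 RPM (reads per 1000000 reads on hairpins) in BN-Lx spleen, 6.04 in SHR spleen and 112 in BN-Lx testis. This limit covers counting error only, since PCR copies are not separate molecules. According to the study's methods, testis was amplified with more PCR cycles than spleen, as was SHR liver, and the part of this in the differences from spleen was not tested.

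Spleen is a lymphoid organ and a blood filter. Its white pulp holds B and T cells, and its red pulp holds macrophages, granulocytes, platelets and red cells at the end of their life, and in rodents it also makes red cells. Several miRNAs are known from single blood lineages: mir-223 from granulocytes and monocytes, mir-150 from mature lymphocytes, mir-144 and mir-451 from red cell precursors, and mir-142 from most white blood cells and their precursors. Each hairpin can give a miRNA from its 5' arm (5p) and its 3' arm (3p), and the bases following the first one (the seed) pair with target mRNAs.

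The mature sequences that mark the blood-cell part of spleen are shown first, because the results below turn on them. They were taken from RefSeq on the GRCr8 build, 5′ to 3′, with the seed (bases 2 to 8) in capitals.
mir-223-3p: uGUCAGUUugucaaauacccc
mir-142-3p: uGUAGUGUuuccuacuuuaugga
mir-142-5p: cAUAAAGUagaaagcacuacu
mir-21-5p: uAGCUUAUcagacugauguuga
mir-342-3p: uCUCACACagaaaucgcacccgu
mir-146a-5p: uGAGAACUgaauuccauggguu
mir-146b-5p: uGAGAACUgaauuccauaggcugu
mir-451-5p: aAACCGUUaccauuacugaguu
mir-144-5p: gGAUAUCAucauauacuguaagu
Only mir-146a-5p and mir-146b-5p shared a seed among these. The hairpins of mir-144 and mir-451 lay together within 244 bases at chr10:63459397-63459640 on the plus strand, mir-142 at chr10:73055104-73055190 and mir-223 at chrX:65151383-65151492, both on the plus strand, all in GRCr8.

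The arms with most reads in spleen were mir-21-5p, mir-223-3p, mir-145-5p, mir-451-5p and mir-150-5p, on average 12.7%, 11.5%, 7.92%, 7.23% and 6.78% of a spleen library. Together they held 47.6% of the reads in BN-Lx and 44.8% in SHR spleen. The same 5 arms held between 3.31% (BN-Lx brain) and 23.8% (BN-Lx heart) elsewhere. The 10 arms with most reads in spleen also included mir-29a-3p, mir-191-5p, mir-24-2-3p, mir-24-1-3p and mir-23a-3p. Of these, mir-191-5p and mir-23a-3p rose in the test described next, while mir-29a-3p and both mir-24 arms did not pass it. The call of mir-23a-3p (0.88 ± 0.20, adjusted p = 0.00712) was lost with RLE factors (0.56, adjusted p = 0.064), without the BN-Lx spleen (0.58, adjusted p = 0.196) and without testis (0.46, adjusted p = 0.142). The mir-24 copies have the same mature arm, so their reads were split between the hairpins and their separate values are uncertain.

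To find what marks spleen, its 2 libraries were compared with the mean of the 5 other tissues on the log2 scale, in an edgeR quasi-likelihood fit of all 12 libraries with strain as a term. Of 457 arms tested, 87 (19.0%) were higher in spleen and 47 (10.3%) lower at a Benjamini-Hochberg adjusted p under 0.05. The median log2 fold change over all arms was 0.10. It was -0.22 with RLE factors, -0.35 with total reads and -0.34 with the outlier-corrected mean of the study, and the split of higher and lower arms then was 67 and 55, 58 and 57, and 58 and 58. The counts of calls therefore rest on the scaling, and the fold changes below are relative to it. Against each of the other 5 tissues in turn, 13 arms (2.84%) were higher in spleen and none (0%) was lower, where 3 were lower at an unadjusted p under 0.05 in all 5 contrasts and 4 by DESeq2. Both spleen libraries lay above all 10 others in RPM for 31 arms (6.78%) and below all for 10 (2.19%). Without the BN-Lx spleen the counts fell to 42 higher and 10 lower, and without the SHR spleen to 46 and 23.

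The 13 arms that were higher than in each other tissue were mir-223-3p, mir-142-3p, mir-142-5p, mir-150-5p, mir-342-3p, mir-144-5p, mir-451-5p, mir-130b-5p, mir-20b-5p, mir-25-3p, mir-15b-5p, mir-191-5p and mir-211-5p. The myeloid, lymphoid and erythroid lists below hold 7 of these names, with 3, 2 and 2 arms. Those lists had 10, 14 and 3 tested arms, and 2.84% of all 457 arms tested were higher than in each other tissue. The lists were chosen with earlier results of these data known, and the cell source of the reads was not tested. Without BN-Lx spleen 4 arms passed all 5 contrasts, without SHR spleen 5, without either heart library 8 and 6, and without the BN-Lx testis 8.

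**Figure D1:**
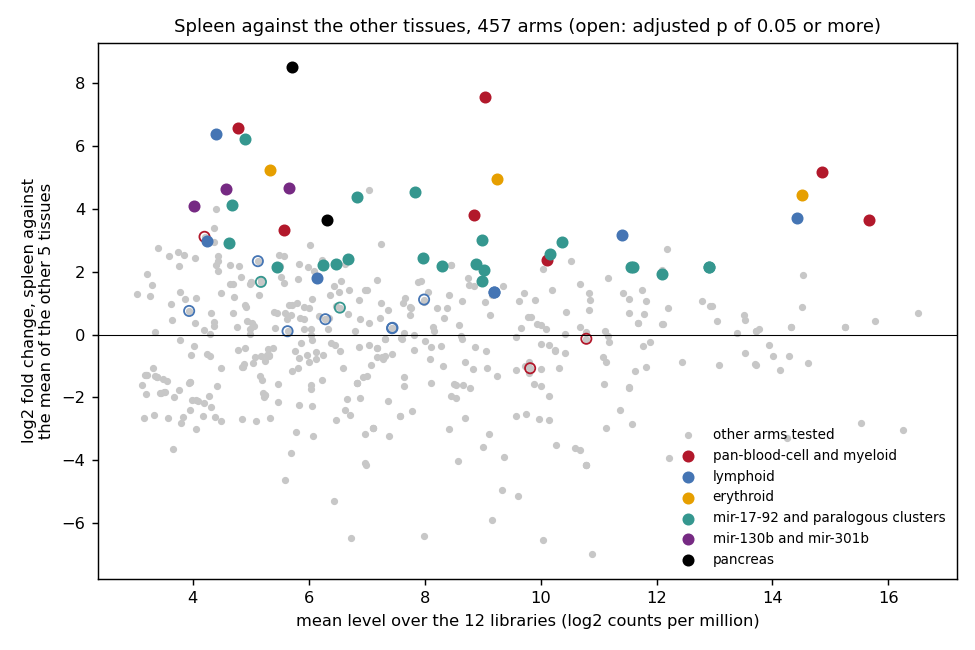
Log2 fold change of spleen against the mean of the other 5 tissues (y axis) over the mean level in 12 libraries (x axis, log2 CPM) for the 457 arms tested. Colours mark 6 lists, and filled coloured points passed the adjusted p. The highest points are mir-217-5p at 8.52 and mir-142-3p at 7.57, against a median of 0.10 over all arms.

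Among the miRNAs of myeloid cells and of blood cells in general, 7 of 10 tested arms were higher in spleen and none was lower. Over all arms tested, 19.0% were higher. With total reads as the scale and with DESeq2, 1 of the 10 was lower. The median log2 fold change of the 10 arms was 3.49. The list was drawn from 7 hairpins, of which 6 were analysed here. Its summed level was 226020 RPM in BN-Lx and 272525 in SHR spleen. It was between 3142 and 79572 RPM in the other libraries, the highest being SHR liver. Of these sums, mir-21-5p alone, an arm found in many cell types, held 120859 and 133434 RPM in the spleens and 67439 in SHR liver.

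mir-223-3p, which restrains granulocyte production and activation, had 99482 RPM in BN-Lx spleen and 131187 in SHR spleen. The other 10 libraries ranged from 932.5 to 8599 RPM with a median of 6062, so the lower spleen was 11.6-fold above the highest of them, SHR liver. Its log2 fold change was 5.18 ± 0.21 (SE, adjusted p = 4.92e-09). By tissue it was 7.74 against brain, 5.30 against testis, 5.19 against kidney, 4.10 against heart and 3.56 against liver. The opposite arm mir-223-5p had 53 and 52 reads in the spleens and at most 5 elsewhere, with a log2 fold change of 6.57 ± 0.73 (adjusted p = 0.000103).

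mir-142-3p had 1889 RPM in BN-Lx and 2497 in SHR spleen, against 11.3 to 98.3 RPM in brain, liver, heart and kidney and 0 reads in both testis libraries. The highest other library, BN-Lx liver, was thus 19.2-fold below the lower spleen. The log2 fold change was 7.57 ± 0.41 (adjusted p = 2.62e-07), and 6.10 (adjusted p = 2.02e-06) when the testis libraries, where the arm was at 0, were left out. mir-142-5p had 1072 and 1650 RPM in the spleens, with a median of 171 and a highest value of 307 RPM elsewhere. Its spleens also lay above all others, with a log2 fold change of 3.82 ± 0.40 (adjusted p = 3.48e-05). The value was 5.23 without SHR testis, which held 3 reads of the arm while BN-Lx testis held 0.

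mir-21-5p, which is found in many cell types and rises in activated immune cells, had 120859 RPM in BN-Lx and 133434 in SHR spleen. Liver came next with 51673 and 67439 RPM, then kidney with 32029 and 32812, and the lowest library was SHR brain with 331 RPM. Both spleens lay above all others, and the log2 fold change was 3.65 ± 0.45 (adjusted p = 8.61e-05), and 4.26 without BN-Lx brain. The difference from liver was 0.78 on the log2 scale and did not pass the test (adjusted p = 0.511). In brain the strains stood apart, with 3937 RPM in BN-Lx and 331 in SHR.

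mir-146a-5p and mir-146b-5p, which dampen signalling from innate immune receptors, also rose, with log2 fold changes of 2.39 ± 0.35 (adjusted p = 0.000336) and 3.33 ± 0.66 (adjusted p = 0.00311). Their spleens did not stand clear of the rest. mir-146a-5p had 1078 RPM in BN-Lx and 2470 in SHR spleen, and SHR liver with 2024 RPM lay between them. mir-146b-5p had 45.4 and 140 RPM, and both brain libraries lay between the spleens with 62.9 and 73.8 RPM. Without the SHR spleen, mir-146b-5p no longer passed (log2 fold change 3.05, adjusted p = 0.0932), and without testis its log2 fold change was 1.97 (adjusted p = 0.00758).

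mir-322, the rodent form of mir-424, did not pass on either arm, with log2 fold changes of -0.13 ± 0.70 for mir-322-3p and -1.07 ± 0.49 for mir-322-5p. The value of mir-322-3p was 0.54 without BN-Lx kidney. mir-21-3p did not pass either (3.11 ± 1.10, adjusted p = 0.0518). The rare arms mir-146a-3p and mir-146b-3p had at most 8 reads in a spleen and were not tested.

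**Figure D2:**
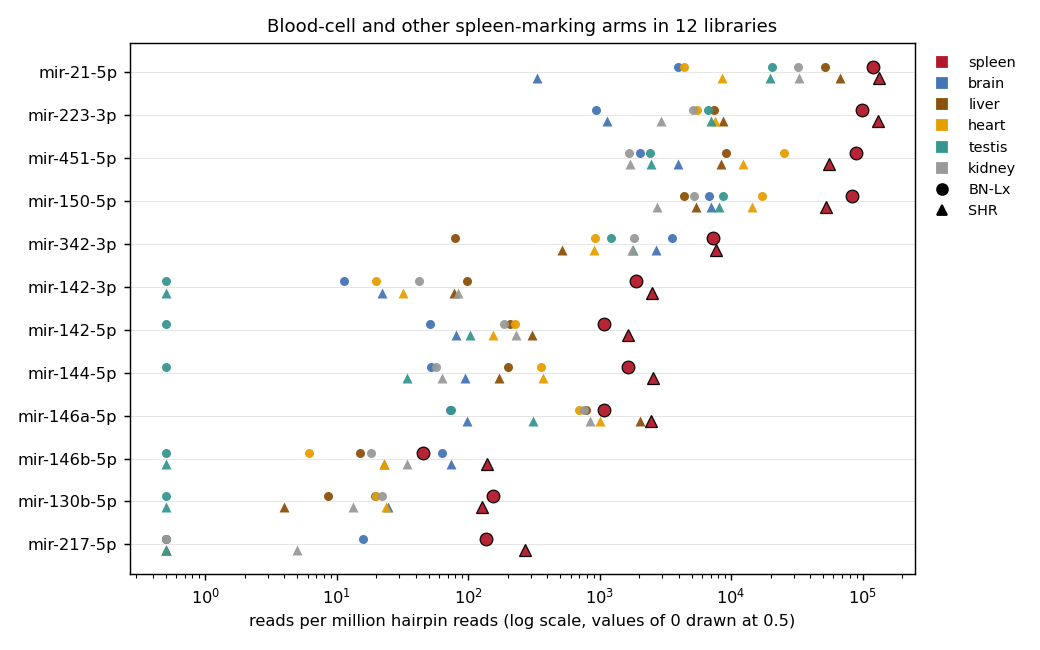
RPM (log axis) of 12 arms in each of the 12 libraries, with colours for tissues, circles for BN-Lx and triangles for SHR. Each row is 1 arm. The large red spleen points lie to the right of all others except for mir-146a-5p and mir-146b-5p.

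Among the lymphocyte miRNAs, 7 of 14 tested arms were higher in spleen and none was lower, with a median log2 fold change of 1.37. Of all arms tested, 19.0% were higher. The calls of mir-181a-1-5p and mir-181a-2-5p rest on the same reads, so they are not independent of each other. The summed level of the list was 92826 RPM in BN-Lx and 62420 in SHR spleen, and at most 19539 RPM elsewhere, in BN-Lx heart. With total reads as the scale, 4 of the 14 arms were higher, and without the BN-Lx spleen 2 of 15.

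mir-150-5p, a miRNA of mature B and T cells, had 82827 RPM in BN-Lx and 52678 in SHR spleen. The other libraries ranged from 2746 to 17033 RPM with a median of 6905, the heart libraries being the highest. The log2 fold change was 3.70 ± 0.23 (adjusted p = 2.62e-07). Its opposite arm mir-150-3p had 72 and 15 reads in the spleens and at most 1 read in any other library. Its log2 fold change was 6.38 ± 0.88 (adjusted p = 0.000284), and 5.10 (adjusted p = 0.0797) without the BN-Lx spleen. It was 7.43 without the SHR spleen, 7.12 without SHR liver and 7.04 without SHR heart.

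mir-342-3p, which is abundant in lymphocytes, had 7335 and 7648 RPM in the spleens. Brain was next with 3524 and 2690 RPM, and BN-Lx liver was lowest with 79.1 RPM. Both spleens lay above all others, with a log2 fold change of 3.16 ± 0.41 (adjusted p = 0.000141). mir-342-5p had 35.2 and 36.2 RPM in the spleens but 37.2 in BN-Lx testis, where 1 read is worth that much. It rose by 2.98 ± 0.73 on the log2 scale (adjusted p = 0.00934), and lost the call without the BN-Lx spleen (3.64, adjusted p = 0.0741) and without the SHR spleen (2.38, adjusted p = 0.178). It was 3.78 without SHR liver and 3.98 without BN-Lx testis.

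The mir-181 family, which acts in lymphocyte development and is also known from brain, stood differently. mir-181a-5p had 902 and 617 RPM per hairpin copy in the spleens and 1906 and 1311 in brain. Against the mean of the other tissues it rose by 1.37 ± 0.36 on the log2 scale (adjusted p = 0.0139), and the call was lost with total reads as the scale (0.89, adjusted p = 0.0909) and without the BN-Lx spleen (0.91, adjusted p = 0.319). The reads of mir-181a-1-5p and mir-181a-2-5p are the same and were divided evenly between both copies. mir-181a-1-3p also rose, by 1.80 ± 0.48 (adjusted p = 0.0147). It lost the call without the BN-Lx spleen (adjusted p = 0.187) and without the SHR spleen (adjusted p = 0.11), and its value was 2.91 without SHR testis. The 7 tested arms of the list that did not pass were all of this family, among them mir-181b-1-5p (0.20 ± 0.53) and mir-181d-5p (0.11 ± 0.57). Both were below 0 with total reads as the scale (-0.28 and -0.35). mir-181b-2-3p and mir-181d-3p, with at most 6 reads in a spleen, were not tested.

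The red cell miRNAs rose on all 3 tested arms, where 19.0% of all arms tested were higher. mir-451-5p is cut by Argonaute 2 and not by Dicer, and builds up as red cells mature. It had 88941 RPM in BN-Lx and 55694 in SHR spleen, and the heart libraries were next with 25205 and 12266 RPM. The lowest were the kidneys with 1685 and 1699 RPM. The log2 fold change was 4.44 ± 0.28 (adjusted p = 2.62e-07). Its neighbour mir-144-5p had 1638 and 2529 RPM in the spleens and at most 370 RPM elsewhere, again in heart, with a log2 fold change of 4.97 ± 0.36 (adjusted p = 1.08e-06). The testis libraries held 0 and 1 reads of it, and the value was 4.23 without both and 6.08 without the SHR one. mir-144-3p had 64 and 81 reads in the spleens and at most 17 elsewhere (5.25 ± 0.78, adjusted p = 0.000495), with 4.25 without testis and 5.86 without SHR heart. mir-451-3p had 0 and 1 reads and was not tested.

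The lineages were not in one proportion across tissues. For each read of mir-451-5p there were 1.12 reads of mir-223-3p in BN-Lx spleen and 2.36 in SHR spleen. This ratio was between 0.217 and 1.04 in brain, liver and heart and between 1.73 and 3.04 in testis and kidney, so spleen did not stand outside the range of the other tissues. The ratio of mir-150-5p to mir-451-5p was 0.931 and 0.946 in the spleens, close to each other although both arms were lower in RPM in SHR. It was 0.479 and 0.655 in liver and 3.11 and 1.62 in kidney. These ratios are descriptions, and how much of the blood-cell signal in the other organs came from blood in their vessels was not tested.

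The proliferation-linked mir-17-92 cluster and its paralogues rose almost throughout. These clusters promote the growth of B cells and other dividing cells. Over all arms tested, 19.0% were higher in spleen. Of 24 tested arms of these clusters, 22 were higher and none was lower, with a median log2 fold change of 2.23. The count was 20 with total reads, 21 with DESeq2, 14 without the BN-Lx spleen and 15 without the SHR spleen. The members fall into 4 seed families, shown here because the reads of identical arms are shared between clusters and the seed is what the paralogues have in common.
mir-17-5p: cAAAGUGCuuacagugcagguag
mir-20a-5p: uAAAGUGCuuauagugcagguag
mir-20b-5p: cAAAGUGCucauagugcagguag
mir-93-5p: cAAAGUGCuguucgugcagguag
mir-106b-5p: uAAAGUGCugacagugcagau
mir-18a-5p: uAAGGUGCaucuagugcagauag
mir-19a-3p: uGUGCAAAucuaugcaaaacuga
mir-19b-3p: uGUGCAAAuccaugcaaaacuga
mir-25-3p: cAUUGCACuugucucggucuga
mir-92a-3p: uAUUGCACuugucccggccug
mir-363-3p: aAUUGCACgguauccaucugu
The mir-17-92 hairpins lay at chr15:98587848-98588632 on the plus strand and the mir-106a-363 hairpins at chrX:137342777-137343647 on the minus strand (RefSeq, GRCr8). RefSeq lists the hairpin that the files call mir-17-2 as Mir106a.

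The 5 arms with the highest log2 fold changes of this group were on the X chromosome cluster. mir-17-2-3p had 48 and 61 reads in the spleens and at most 7 elsewhere, with a log2 fold change of 6.24 ± 0.83 (adjusted p = 0.00035). mir-20b-5p had 713 and 819 RPM in the spleens, and its highest other value was 298 RPM in BN-Lx testis. Its log2 fold change was 4.53 ± 0.57 (adjusted p = 0.000103). mir-363-3p had 276 and 485 RPM, against at most 172 in SHR testis (4.39 ± 0.55, adjusted p = 0.000102). mir-92a-2-3p had 1165 and 1234 RPM, against at most 893 (3.02 ± 0.36, adjusted p = 7.67e-05).

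The arms of the chromosome 15 cluster lay closer together, from 1.92 ± 0.29 for mir-17-1-5p to 2.93 ± 0.62 for mir-18a-3p. mir-19b-1-3p was the most abundant, with 12121 and 16416 RPM in the spleens and 15997 RPM in BN-Lx testis. For mir-17-1-5p, mir-18a-5p, mir-19a-3p, mir-19b-1-3p and mir-20a-5p, at least 1 testis library lay above the lower spleen. Summed over the mir-19 seed family, the spleens had 26238 and 35618 RPM, and the testis libraries 35491 and 19464. For the mir-17 family the sums were 13894 and 19388 in the spleens and 18638 and 19670 in testis. For mir-25 and mir-92 they were 9677 and 9911 in the spleens and 6064 and 10985 in testis. mir-18a-5p had 932 and 600 RPM in the spleens and 1265 and 3364 in testis. The difference between the clusters was not tested.

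In the mir-106b-25 cluster, mir-25-3p had 2973 and 3932 RPM in the spleens, above all others, and rose by 2.95 ± 0.33 (adjusted p = 3.69e-05). mir-106b-5p rose by 1.69 ± 0.44 (adjusted p = 0.0131), although SHR testis, with 1339 RPM, lay between the spleens at 535 and 1390. mir-106b-3p had 627 and 596 RPM in the spleens and 961 in SHR testis. The 2 arms of the group that did not pass were mir-93-5p (0.86 ± 0.48) and mir-25-5p (1.68 ± 0.60, adjusted p = 0.0518). mir-17-1-5p and mir-17-2-5p share reads, as do the copies of mir-19b-3p and mir-92a-3p, so only their sums are certain.

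**Figure D3:**
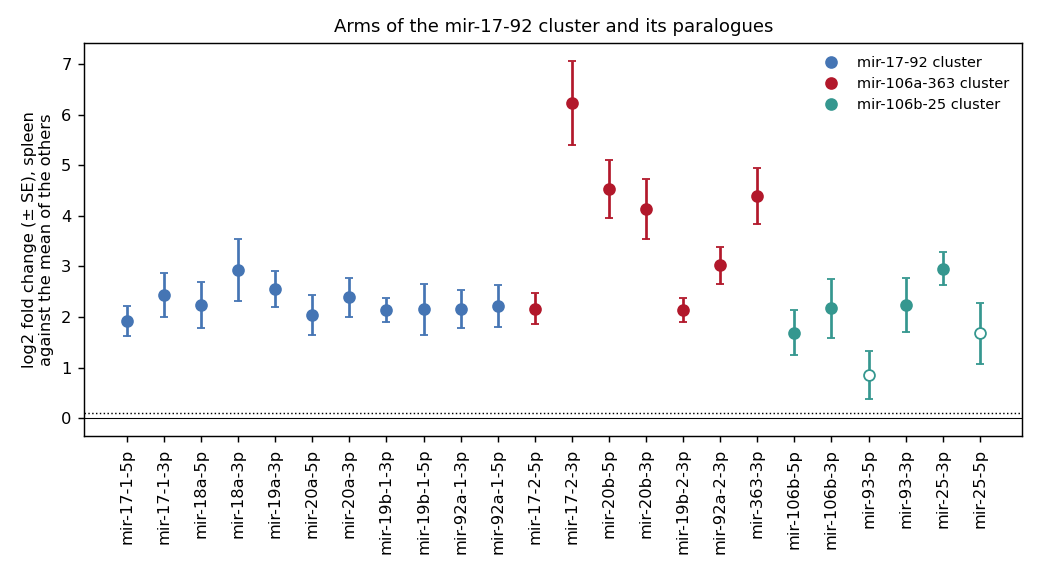
Log2 fold change of spleen against the mean of the other 5 tissues for 24 arms of 3 clusters, with SE bars, filled where the adjusted p was under 0.05. The dotted line is the median of all arms, 0.10, and 22 of the 24 points are filled.

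mir-130b and mir-301b, which lie together at chr11:97384033-97384461 (GRCr8, plus strand), rose on all 3 tested arms. Their 3p arms share a seed, and the 5p arm of mir-130b was the more read one. The list was chosen with earlier results of these data known, and 19.0% of all arms tested were higher.
mir-130b-3p: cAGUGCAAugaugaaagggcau
mir-301b-3p: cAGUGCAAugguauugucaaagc
mir-130b-5p: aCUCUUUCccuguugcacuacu
mir-130b-5p had 153 and 127 RPM in the spleens, against at most 24.4 RPM elsewhere. Its log2 fold change was 4.67 ± 0.58 (adjusted p = 0.000139), and 3.47 (adjusted p = 0.000282) without testis, where it had no reads. mir-301b-3p had 36 and 37 reads in the spleens and at most 9 elsewhere (4.65 ± 0.76, adjusted p = 0.000943), with 3.73 without testis and 5.36 without SHR liver. mir-130b-3p had 20 and 21 reads (4.11 ± 1.08, adjusted p = 0.0145). It lost the call without either spleen and in DESeq2 (adjusted p = 0.15, 0.19 and 0.185), and its value was 5.23 without BN-Lx liver and 3.29 without testis. mir-301b-5p had 2 and 5 reads in the spleens and none elsewhere, and was not tested. These arms were rare, and all 4 together had 232 and 254 RPM in the spleens.

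Of the miRNAs known from the pancreas, which touches the spleen along its tail, some were also higher in spleen. mir-217 and the mir-216 pair are known from the acinar cells of the pancreas, and mir-375 from its islets. The 3 hairpins mir-216b, mir-216a and mir-217 lie within 18564 bases at chr14:106714026-106732589 (GRCr8, plus strand).
mir-217-5p: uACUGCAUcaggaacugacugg
mir-216a-5p: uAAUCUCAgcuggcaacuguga
mir-216b-5p: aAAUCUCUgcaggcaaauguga
mir-375-3p: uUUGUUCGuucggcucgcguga
mir-217-5p reached 101 reads, or 137 RPM, in the BN-Lx spleen and 135 reads, or 272 RPM, in the SHR spleen. It had 17 reads in BN-Lx brain, 3 in SHR kidney and 0 in the other 8 libraries, and in testis a count of 0 allowed up to 112 and 103 RPM. The log2 fold change was 8.52 ± 1.10 (adjusted p = 0.000457), which depends on how counts of 0 are treated. The call was lost in DESeq2 (6.97, adjusted p = 0.143). The value was 9.66 without the BN-Lx spleen, 7.5 without the SHR spleen, 9.40 without BN-Lx brain and 9.42 without SHR kidney.

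mir-375-3p had 42 and 150 reads in the spleens and rose by 3.66 ± 0.77 (adjusted p = 0.00442). SHR testis was higher in RPM, with 618 against 56.9 and 302. Without the SHR spleen the call was lost (2.97, adjusted p = 0.16), and without SHR testis the value was 5.59. mir-216b-5p, listed under the human hairpin, had 11 and 47 reads and mir-216a-5p 3 and 4, and neither was tested. BN-Lx brain held 18 reads of mir-216b-5p and 1 of mir-216a-5p, and SHR brain held 2 of mir-216b-5p. Reads of the mir-217, mir-216a and mir-216b 5p arms were thus found in both spleens, in both brains and in SHR kidney, and were at 0 in the other 7 libraries. The list had 218 RPM in BN-Lx and 706 in SHR spleen in total. Whether any pancreas was taken with the spleens was not tested.

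**Figure D4:**
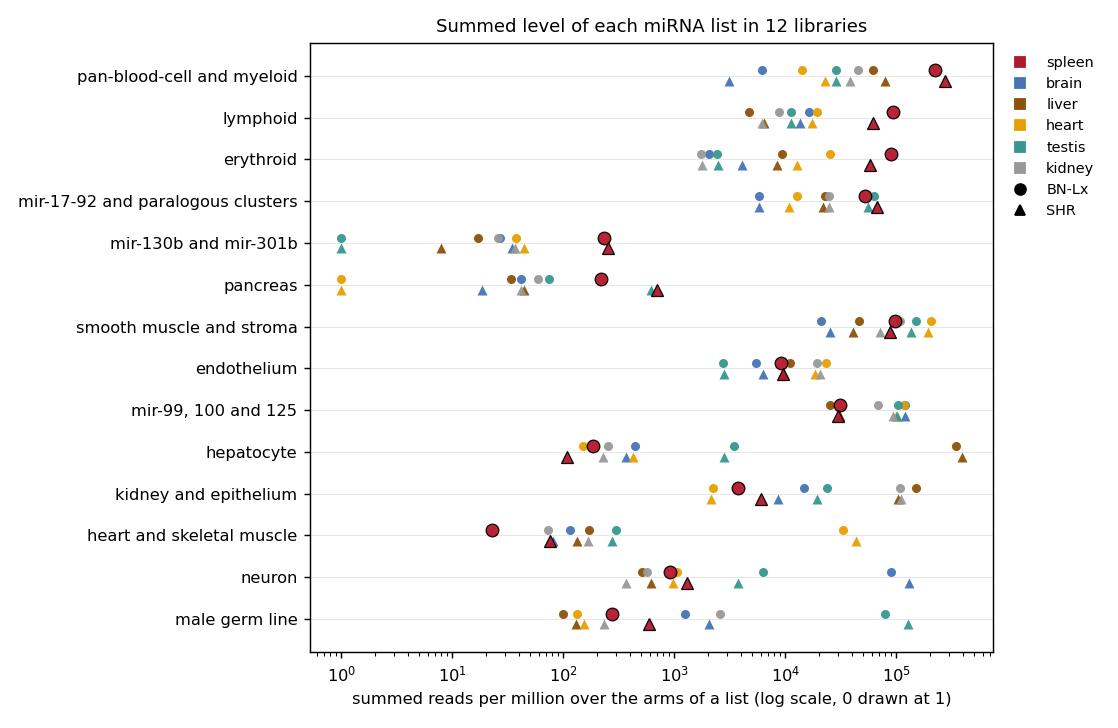
Summed RPM (log axis) of 14 miRNA lists in each of the 12 libraries, with the same colours and symbols for tissue and strain as the plot of single arms. Both spleens lie above all others for the myeloid, lymphoid and erythroid lists and for mir-130b and mir-301b, while SHR testis lies between them for pancreas and both testis libraries do for the mir-17-92 list.

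The hepatocyte, heart and muscle, neuron and male germ line lists had a lower summed level in spleen than in the organ they mark. The hepatocyte miRNA mir-122-5p had 75.9 and 82.5 RPM in the spleens and 266223 and 322392 in liver. The heart and skeletal muscle list summed to 23 and 76.5 RPM in the spleens against 33136 and 43434 in heart. The neuron list summed to 913 and 1306 RPM, against 89900 and 130482 in brain, and the male germ line list to 275 and 594 RPM against 79874 and 128763 in testis. Beside the remaining tissues spleen was not always low. The neuron list had 517 and 614.5 RPM in liver, 570 and 370 in kidney, 1058 and 966 in heart, and 6287 and 3742 in testis. In the test, 2 of 2 hepatocyte arms, 4 of 8 heart and muscle arms and 8 of 15 neuron arms were lower in spleen and none was higher. Over all arms tested, 10.3% were lower. The mean of the other tissues includes the organ that each list marks, which favours a lower call. The copies of mir-124, of mir-9 and of mir-128 share reads, so the neuron calls are not independent of each other. Without the BN-Lx spleen none of the heart and muscle or neuron arms passed, and without the SHR spleen 3 and 6 did. In edgeR none of 11 male germ line arms passed, where 2 were lower at an unadjusted p under 0.05 and 2 by DESeq2.

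The kidney and epithelium list had 3766 and 6038 RPM in the spleens. Most of this was mir-204-5p, with 2453 and 4201 RPM in the spleens, above the 737 and 1104 RPM of kidney. It was the 1 arm of 12 that rose (1.41 ± 0.27, adjusted p = 0.0021), although brain and testis held more. It lost the call without the SHR spleen. Its close relative mir-211-5p was among the arms higher than in each other tissue. mir-211-5p had 659 RPM in BN-Lx and 189 in SHR spleen, and 146 RPM in the next library, BN-Lx brain (4.61 ± 0.45, adjusted p = 1.76e-05). Of the list, mir-192-5p and mir-192-3p were lower.

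Structural cells of spleen gave a weaker picture. The smooth muscle and stroma list had 96638 and 88487 RPM in the spleens. This was inside the range of the other libraries, from 20824 RPM in brain to 206577 RPM in heart. Over the arms of all lists and outside them, 19.0% were higher in spleen. All 6 tested arms passed as higher, but 1 passed with RLE factors, 1 with DESeq2, none with total reads, and none without either spleen. mir-145-5p, the third most read arm of spleen and a miRNA of smooth muscle, had 83525 and 74841 RPM against a median of 71933 elsewhere. Its log2 fold change was 0.68 ± 0.20 (adjusted p = 0.0212) and 0.22 (adjusted p = 0.399) with total reads. In edgeR none of the 6 endothelial arms of mir-126, mir-221 and mir-222 passed, where 2 were higher at an unadjusted p under 0.05 and none by DESeq2. mir-126-3p had 8231 and 7857 RPM against a median of 8742.

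The arms that were lower in spleen than in all 10 other libraries and passed the test numbered 7. They were mir-219-2-3p (-3.89 ± 0.63), mir-192-5p (-2.80 ± 0.22), mir-328-3p (-2.71 ± 0.66), mir-598-3p (-2.66 ± 0.51), mir-190-3p (-2.65 ± 0.79), mir-29c-3p (-1.13 ± 0.36) and mir-23b-3p (-0.69 ± 0.22). mir-219-2-3p rested on 1 and 2 reads in the spleens, against 2 to 4 reads in each liver, heart and testis library. Brain had 5892 and 5317 RPM of it. Its log2 fold change was -3.23 without the BN-Lx spleen and -4.71 without the SHR spleen, and with all libraries thinned to the depth of testis it was -0.13 (adjusted p = 0.755). mir-192-5p had 1015 and 1179 RPM in the spleens, while SHR brain, the lowest other library, had 1392 RPM and BN-Lx liver 145650. mir-29c-3p had 7037 and 4815 RPM, and the others ranged from 8937 to 49181. The calls of mir-328-3p, mir-190-3p, mir-29c-3p and mir-23b-3p were lost without the BN-Lx spleen (adjusted p = 0.0783, 0.0925, 0.0741 and 0.0925) and without the SHR spleen (0.116, 0.239, 0.391 and 0.303), and that of mir-29c-3p without either testis library (0.0654 and 0.0511). That of mir-598-3p was lost without the SHR spleen (0.0579) and after thinning (0.122). mir-190-3p rested on 6 and 1 reads in the spleens, and the testis libraries held 3 and 4. Its value was -4.02 without the BN-Lx spleen and -2.02 without the SHR spleen. The call of mir-23b-3p was also lost when any of 6 other single libraries was left out.

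The mir-99, mir-100 and mir-125 group is known from blood stem cells and is lower in their mature progeny. It was listed together with let-7c-1 and let-7e. Of the 15 tested arms of this list, 4 were lower and none was higher, where 10.3% of all arms tested were lower. mir-125a-5p had 10396 and 9078 RPM in the spleens against a median of 31745 (-0.92 ± 0.25, adjusted p = 0.016). The copies of mir-125b-5p, which share reads, and mir-100-5p fell by similar amounts. Liver held as little as spleen, with 6740 and 8549 RPM of mir-125a-5p. Without the SHR spleen none of the 4 passed, and without the BN-Lx spleen 1 arm of the list did.

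Of all 457 arms tested, 87 (19.0%) were higher and 47 (10.3%) lower. Outside all lists, 36 of 326 tested arms were higher and 27 lower. 3 of the 13 arms higher than in each other tissue were among them, named here after their values were seen. mir-191-5p had 48906 and 40895 RPM in the spleens and at most 23884 elsewhere, a log2 fold change of 1.89 ± 0.20 (adjusted p = 3.62e-05). mir-15b-5p had 11784 and 8873 RPM and rose by 2.72 ± 0.33 (adjusted p = 8.61e-05), although SHR testis, with 10882 RPM, lay between the spleens. The other was mir-211-5p.

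Under the 5-fold rule of the study, 13 arms were specific to spleen. It asks for a value relative to the outlier-corrected mean at least 5 times that of every other tissue in both strains, and makes no test. With at least 10 reads in each spleen, 6 arms met it. These were mir-223-3p, mir-142-3p, mir-217-5p, mir-130b-5p, mir-150-3p and mir-17-2-3p. The other 7 had fewer than 10 reads in at least 1 spleen. mir-211-3p, mir-92a-2-5p, mir-301b-5p and the 3p arm of an unnamed hairpin had no reads outside spleen, and 1 to 5 reads in a spleen. The 5p arm of the unnamed hairpin had 5 and 13 reads in the spleens and 4 in each liver library. mir-216a-5p, mir-217-3p and the 3p arm of mir-216b had 1 to 6.

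mir-142 differed between spleen and the rest also in the use of its arms. In spleen, 36.2% of its reads came from the 5p arm in BN-Lx (exact 95% interval 34.2 to 38.3%, 2185 reads) and 39.8% in SHR (37.7 to 41.9%, 2061 reads). In the 8 other libraries with at least 20 reads of the hairpin the share ranged from 68.1% (59.8 to 75.6%, BN-Lx liver) to 91.9% (84.7 to 96.5%, BN-Lx heart), with a median of 80.7%. SHR testis had 3 reads, all 5p, and BN-Lx testis had none. The spleen shares lay below those of all 9 other libraries with a read. The depth differed, with 67 to 193 reads in those 8 libraries. The intervals cover counting error only, and the difference between tissues was not tested.

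**Figure D5:**
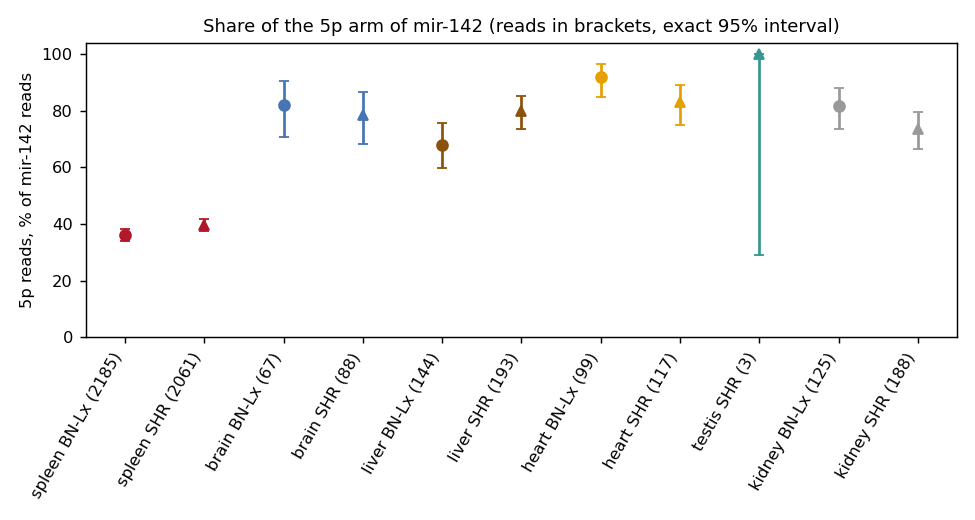
Percent of mir-142 reads that came from the 5p arm in each library with a read of the hairpin, with exact 95% intervals and the number of reads in brackets. The spleens lie at 36.2 and 39.8%, and the lowest other library at 68.1%.

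The arm shares of 11 other hairpins from the lists overlapped between spleen and the other libraries, except for mir-17-2. Its 5p share was 98.3 and 98.8% in spleen and 99.1 to 100% elsewhere, and its 5p reads are shared with mir-17-1. The 5p share of mir-144, for example, was 94.0 and 95% in the spleens and 87.5 to 99.3% in the 8 other libraries with at least 20 reads.

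The ends of the mir-142 arms were also examined, since a shifted 5' end shifts the seed. In spleen, 95.3 and 96.7% of the mir-142-5p reads started at position 14 of the hairpin, as did 95.9 to 100% in the others. This start lies 2 bases before that of the RefSeq sequence. The 3p arm had 3 starts, at positions 52, 53 and 55. They held 49.7, 23 and 26.3% of the reads in BN-Lx spleen and 52.3, 28.3 and 18.3% in SHR spleen. The most frequent spleen read of each start, cut from the RefSeq hairpin, is shown because the capitals show how the seed moves with the start.
mir-142-5p from position 14: cCCAUAAAguagaaagcacu
mir-142-3p from position 52: uGUAGUGUuuccuacuuuaugg
mir-142-3p from position 53: gUAGUGUUuccuacuuuaugg
mir-142-3p from position 55: aGUGUUUCcuacuuuauggauga
Position 52 held 30 to 58.3% of the 3p reads in the 8 other libraries that had any, a range that includes both spleens. mir-223-3p had a main start at position 68 with 85.2 and 85.6% of the reads in the spleens and 81.5 to 90.5% elsewhere. mir-21-5p, mir-150-5p and mir-451-5p had over 95% of their reads at 1 start in all 12 libraries.

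The 2 spleens were close to each other. Over 194 arms with at least 30 reads in both, the Spearman correlation of their RPM was 0.951 across arms, which are not independent replicates, and 86.6% lay within 2-fold. Among the abundant arms, mir-451-5p and mir-150-5p were lower in SHR, at 0.626 and 0.636 of BN-Lx, and mir-223-3p was 1.32-fold higher. When the difference between strains in spleen was tested against that in the other tissues, none of 457 arms passed in edgeR. The smallest adjusted p was 1, and 6 arms had an unadjusted p under 0.05. With 1 spleen per strain the spread came from the other tissues.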

How the data were processed

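Small RNA of whole tissue was sequenced on SOLiD from 1 BN-Lx and 1 SHR rat. The authors remapped reads with SHRiMP (version not given in the sources used here) to pre-miRNA hairpins of RGSC3.4 and miRBase, kept perfect matches outside the loop, and divided a read that matched several hairpins evenly. The deposited values are therefore estimated counts per start and end on a hairpin, and copies that share a mature arm are uncertain. Counts were summed per hairpin and arm (697 arms, 387 hairpins, 26880 to 1064894 reads per library) and rounded to whole numbers for tests.

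The 12 libraries were fitted in edgeR 4.0.16 (R 4.3.3) with the quasi-likelihood test, TMM factors, filterByExpr by tissue (457 arms left), and terms for tissue and strain. Spleen was contrasted with the mean of the other 5 tissues and with each, with Benjamini-Hochberg adjustment over all arms. The strain term pairs libraries of 1 rat by design, although deviations correlated with those of spleen by only -0.135 to 0.0964 over arms. Alternatives were DESeq2 1.42.0, other scalings, no filter, no strain term, thinning to 26879 reads, and leaving out libraries. On simulated data of 435 arms, 60.0% to 97.9% of changed arms were called, depending on the fold, and 0.816% of 245 unchanged ones. The simulation gave an arm the same mean in all other tissues and no strain difference. These rates therefore need not hold for the real tissues, which differ from each other. The test used 5 other tissues of which testis was shallow. Exact binomial intervals cover 95%.

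The arms named were all members of the blood-cell, mir-130b and pancreas lists, up to 10 arms at each end of the fold changes among those beyond all other libraries, the 10 most read, and those under the 5-fold rule. Of the other lists, some members were named as examples. The arms higher than in each other tissue, and the X chromosome neighbours in the closing section, were named outside this rule after their values were seen. Members and lists were chosen with earlier results of these data known. Further liver libraries and the table of testis piRNA clusters were not used here. mir-155, mir-486, mir-148a and mir-18b were not analysed here, and for mir-150 no sequence is given.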

Additional observations from a re-analysis of the deposited data

How the results depend on the processing

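The counts of arms higher and lower than the mean of the other tissues were 87 and 47. With the other tissues as 1 group, which changes both the contrast and the spread, they were 5 and 0, the 5 being mir-142-3p, mir-150-3p, mir-150-5p, mir-217-5p and mir-223-3p, and with all libraries thinned to the depth of testis 48 and 15. DESeq2 called 73 and 73. Leaving out 1 library gave 42 to 98 higher and 10 to 51 lower. The count higher than each tissue, 13, was 8 with total reads, 7 with the outlier-corrected mean, 23 without testis and 4 to 18 with 1 library left out. The count lower than each, 0, was 4 with DESeq2, 1 without testis and 0 to 0 with 1 library left out. Without the replicate block, that is without pairing the libraries of a rat, the counts were 101 higher, 48 lower and 18 higher than each. Under the 5-fold rule 13 arms became 21 at a fold of 3, 7 at a fold of 10, 6 with at least 10 reads, 22 in BN-Lx alone, 25 in SHR alone and 7 after thinning. Log2 fold changes of arms that had not passed changed sign. In the order RLE factors, total reads, outlier-corrected mean, DESeq2, without testis and 1 group, they were -0.10, -0.28, -0.27, -0.10, -0.014 and -0.13 for mir-181b-1-5p, -0.091, -0.27, -0.25, -0.089, -0.0036 and -0.12 for mir-181b-2-5p, -0.19, -0.35, -0.32, -0.19, -0.28 and -0.39 for mir-181d-5p, and -0.058, -0.20, -0.17, -0.058, -0.13 and -0.14 for mir-24-1-3p and mir-24-2-3p. For mir-29a-3p they were -0.037 with total reads and -0.021 with the outlier-corrected mean. With 1 library left out the ranges were -0.36 to 0.54 for mir-322-3p, -0.0066 to 1.88 for mir-181a-2-3p, -0.46 to 0.69 for mir-181b-1-5p, -0.46 to 0.71 for mir-181b-2-5p, -0.094 to 1.19 for mir-181d-5p and -0.064 to 0.84 for mir-29a-3p. The causes were not tested. Of all values of single arms under an alternative, 860 kept their direction and side of the threshold, 80 lost the call, 8 gained it and 43 changed sign. Depth limits testis most, where a count of 0 allows 112 and 103 RPM.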

Other observations

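In a further group of neighbouring hairpins on the X chromosome, 4 of 7 tested arms were higher in spleen and none was lower. The group was chosen after its values were seen, and 19.0% of all arms tested were higher. mir-532, mir-188, mir-362, mir-501 and mir-500 lay at chrX:17919185-17930726 on the plus strand of GRCr8. mir-532-5p had 1999 and 2060 RPM in the spleens and at most 829 RPM elsewhere, with a log2 fold change of 2.10 ± 0.34 (edgeR, adjusted p = 0.000607). mir-500-3p had 352 and 326 RPM against at most 172 RPM (2.87 ± 0.40, adjusted p = 0.00022). mir-362-5p had 121 and 145 RPM against at most 112 RPM (2.39 ± 0.58, adjusted p = 0.00904). mir-362-3p passed (1.80 ± 0.33, adjusted p = 0.00143) with 701 and 763 RPM in the spleens, but both testis libraries were higher, with 1004 and 790 RPM. Of the 3 arms that did not pass, mir-501-5p had an adjusted p of 0.0673, mir-532-3p of 0.0929 and mir-188-3p of 0.855. mir-188-3p had 8.13 and 8.05 RPM in the spleens, below BN-Lx brain with 24.4 RPM. mir-188-5p, mir-500-5p and mir-501-3p were not tested.

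mir-451-5p reads were longer in spleen. Of them, 70.2% in BN-Lx and 76.2% in SHR spleen had at least 23 nucleotides, and between 44.7% and 67.6% in the other libraries, the highest of these being SHR testis with 71 reads. The mean length was 22.66 and 22.70 nucleotides in the spleens and 22.32 to 22.56 elsewhere. The difference was not tested.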
